A study of Neurospora crassa with 12 samples.

Results

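Transcripts whose 3′ end lay past the annotated end of their gene were taken from 1 assembled annotation of the Neurospora crassa transcriptome. The annotation held 21475 transcripts, of which 10785 were the annotated transcripts of 9730 genes. The other 10690 were unannotated ones, assembled from the reads and merged with the existing annotation. Members were chosen by position: an unannotated transcript had to share exonic bases on the same strand with exactly 1 annotated gene, to pass the outermost annotated 3′ end of that gene by at least 100 bp, and to pass its 5′ end by less than 100 bp. Under this rule 503 of the 4940 unannotated isoforms that overlapped exactly 1 gene were extended at the 3′ end. They belonged to 377 of 9730 annotated genes, a background share of 3.87%, and to 10.6% of the 3546 genes with any unannotated isoform. Since the measured ends selected the members, the presence and the minimum length of the extensions were set by the rule and are given as a description.

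The reads came from 12 RNA-seq libraries of mycelia, 2 in each of 6 groups: wild type (WT), Δset-1 and Δdim-5, each harvested after 24 h in constant darkness (DD24) or after the same dark period followed by 30 min of light (LP30). SET-1 is the methyltransferase of histone H3 lysine 4 and DIM-5 that of histone H3 lysine 9. The study describes the libraries of a group as biological replicates. All libraries were merged into the 1 annotation, which holds positions and no expression values, so an isoform could not be assigned to a strain or a light condition, and its abundance and the read depth behind each end are unknown.

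The 3′ end of an mRNA is made when the nascent transcript is cleaved and polyadenylated, after which RNA polymerase II goes on for some distance before it terminates. The choice between alternative cleavage sites sets the length of the 3′ untranslated region, where elements that act on stability, translation and localization often lie. Filamentous fungi have compact genomes in which many neighbouring genes point at each other, so that a transcript that runs on past its usual end soon meets the antisense strand of the next gene.

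The extensions were mostly short relative to the genes. The distance past the annotated 3′ end had a median of 403 bp (95% interval of the median 367 to 443 bp, n = 503), with quartiles of 212.5 and 855 bp. The longest was 36894 bp, and 90% of the isoforms ended within 1667 bp. Counting bases in exons alone, the extensions had a median of 377 nt, which was 15.5% of the exonic length of the isoform. In 71 isoforms (14.1%) more exonic sequence lay past the annotated end than inside the gene.

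**Figure D1:**
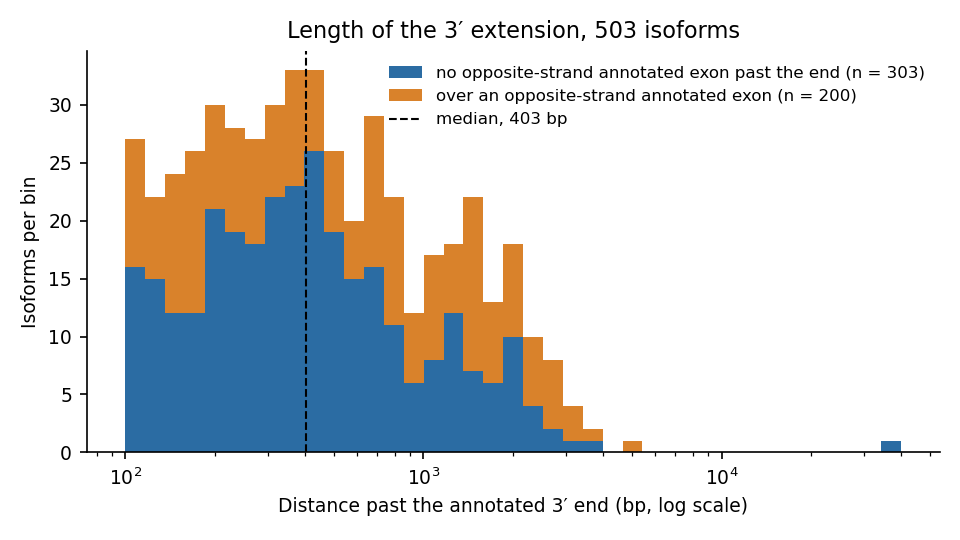
Number of 3′-extended isoforms (y axis) by distance past the annotated 3′ end of the gene (x axis, bp, log scale), with the 200 isoforms that overlapped an annotated exon of the opposite strand stacked in orange on the 303 that did not in blue. The dashed line marks the median of 403 bp, and the ypt-1 isoform stands alone at 36894 bp.

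The threshold did not fall in a gap of the distribution. Between 75 and 99 bp past the annotated end lay 34 isoforms that met the other criteria, and between 100 and 124 bp lay 38. Just inside were isoforms of NCU02487, NCU09756 and NCU01366 at 100 bp and of NCU00722 and NCU02812 at 101 bp. Just outside were an isoform of ff-1 (NCU01543) at 98 bp, of NCU02576 and NCU04306 at 97 bp, of NCU03417 at 96 bp and of NCU05647 at 95 bp.

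Most members covered nearly all exonic bases of the annotated gene and ran on past its end. The median cover was 98.3% of the exonic bases of the longest annotated transcript, and 401 of 503 (79.7%) covered at least 90% of it. This measure does not fall when an annotated intron is retained as exon, so it does not show that the splicing was the same. The 5′ end matched the annotated start to the base in 197 isoforms (39.2%) and lay within 25 bp of it in 291 (57.8%). The exceptions were 96 isoforms (19.1%) that began more than 100 bp inside the gene and 14 (2.78%) that covered less than 50% of it. In 415 isoforms (82.5%, exact 95% interval 78.9 to 85.7%) an exon ran without a break over the annotated 3′ end, and in the other 88 it did not, because an intron lay across the annotated end or began right after it.

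In the sequence past the annotated end, 169 isoforms (33.6%, interval 29.5 to 37.9%) had an intron or part of one, and 97 (19.3%) had an intron that lay wholly beyond it. The wholly downstream introns had 101 distinct positions and, counted over 114 occurrences, a median length of 80 bp with quartiles of 63 and 130 bp. Isoforms with an intron past the end reached further (median 728 bp, n = 169) than those without (321.5 bp, n = 334). The share with such an intron was 13.0% of the 115 isoforms that ended 100 to 199 bp past the gene, 28.0% of 175 at 200 to 499 bp, 36.4% of 99 at 500 to 999 bp, 54.5% of 77 at 1000 to 1999 bp and 73.0% of 37 at 2000 bp or more. The part of length alone in this order was not tested.

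**Figure D2:**
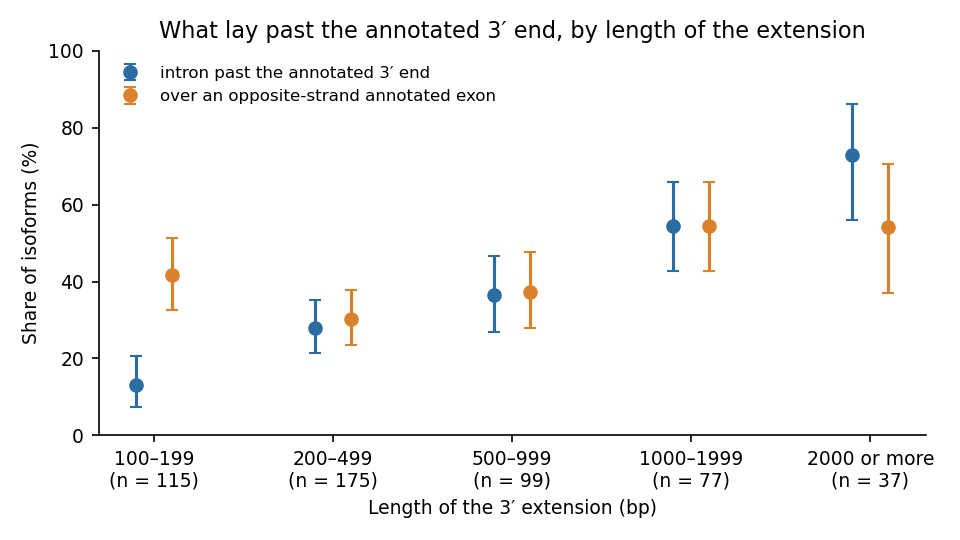
Share of 3′-extended isoforms (y axis, %) with an intron past the annotated 3′ end (blue) and over an annotated exon of the opposite strand (orange), in 5 classes of extension length (x axis, bp). Points are shares with exact 95% intervals for counting error. The intron share went from 13.0% in the shortest class to 73.0% in the longest, while the opposite-strand share was 41.7% in the shortest and lowest, at 30.3%, in the next.

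Inside the gene, the splicing of these isoforms often differed from the annotation. Only transcripts that the merge kept apart from the annotated ones could be members. How far this selection set the shares with differing splicing, here and past the annotated end, was not tested. Of the 456 members of genes with an annotated intron, 139 (30.5%) kept every intron of an annotated transcript, 250 (54.8%) retained at least 1 annotated intron as exon, and 131 (28.7%) shared no intron with the annotation. The first groups overlap, because an intron of 1 annotated transcript can be exon in another, as in ham-7 (NCU00881). Counted by gene, 119 of 337 multi-exon genes (35.3%, interval 30.2 to 40.7%) had a 3′-extended isoform with the full annotated intron chain. An intron absent from the annotation lay inside the gene in 200 of the 503 isoforms (39.8%), and 59 isoforms (11.7%) had 1 exon.

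The gene with the most 3′-extended isoforms was tcu-3 (NCU07428, chromosome I, minus strand, 661989 to 663664), which carries the name of a copper transporter. Its 9 isoforms passed the annotated end by 657 to 2081 bp and used 5 different ends, of which the farthest, at 2081 bp, was shared by 5 isoforms. Past the end these isoforms were spliced in different patterns, with 3 introns in MSTRG.205.2 and MSTRG.205.8 and none in MSTRG.205.5, whose last exon ran without a break to 2081 bp. The next gene downstream, NCU07429, lay on the same strand 3007 bp away, and the longest isoforms left 926 bp of that gap. No annotated exon of the opposite strand lay under any of the 9.

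In tah-4 (NCU07945, chromosome IV, minus strand, 1268616 to 1272971) 7 isoforms ended 958 to 1424 bp past the gene. The convergent neighbour NCU07946 already overlapped tah-4 by 1436 bp in the annotation, and the extensions added 666 to 989 nt of exonic overlap with it. The annotated intron chain was kept in none of the 7, and MSTRG.6718.6 retained all 5 annotated introns. NCU08537 (chromosome III, minus strand, 4995734 to 5000429) had 6 isoforms with 4 ends at 246, 670, 1223 and 2351 bp. Its annotated last exon is 14 nt long, and MSTRG.6319.2 and MSTRG.6319.6 prolonged that exon while the other 4 retained the intron before it. The convergent NCU08538 lies 269 bp downstream, so the isoforms with an end at 670 bp or beyond overlapped it, and the 2 that ended at 2351 bp passed over the whole of it.

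**Figure D3:**
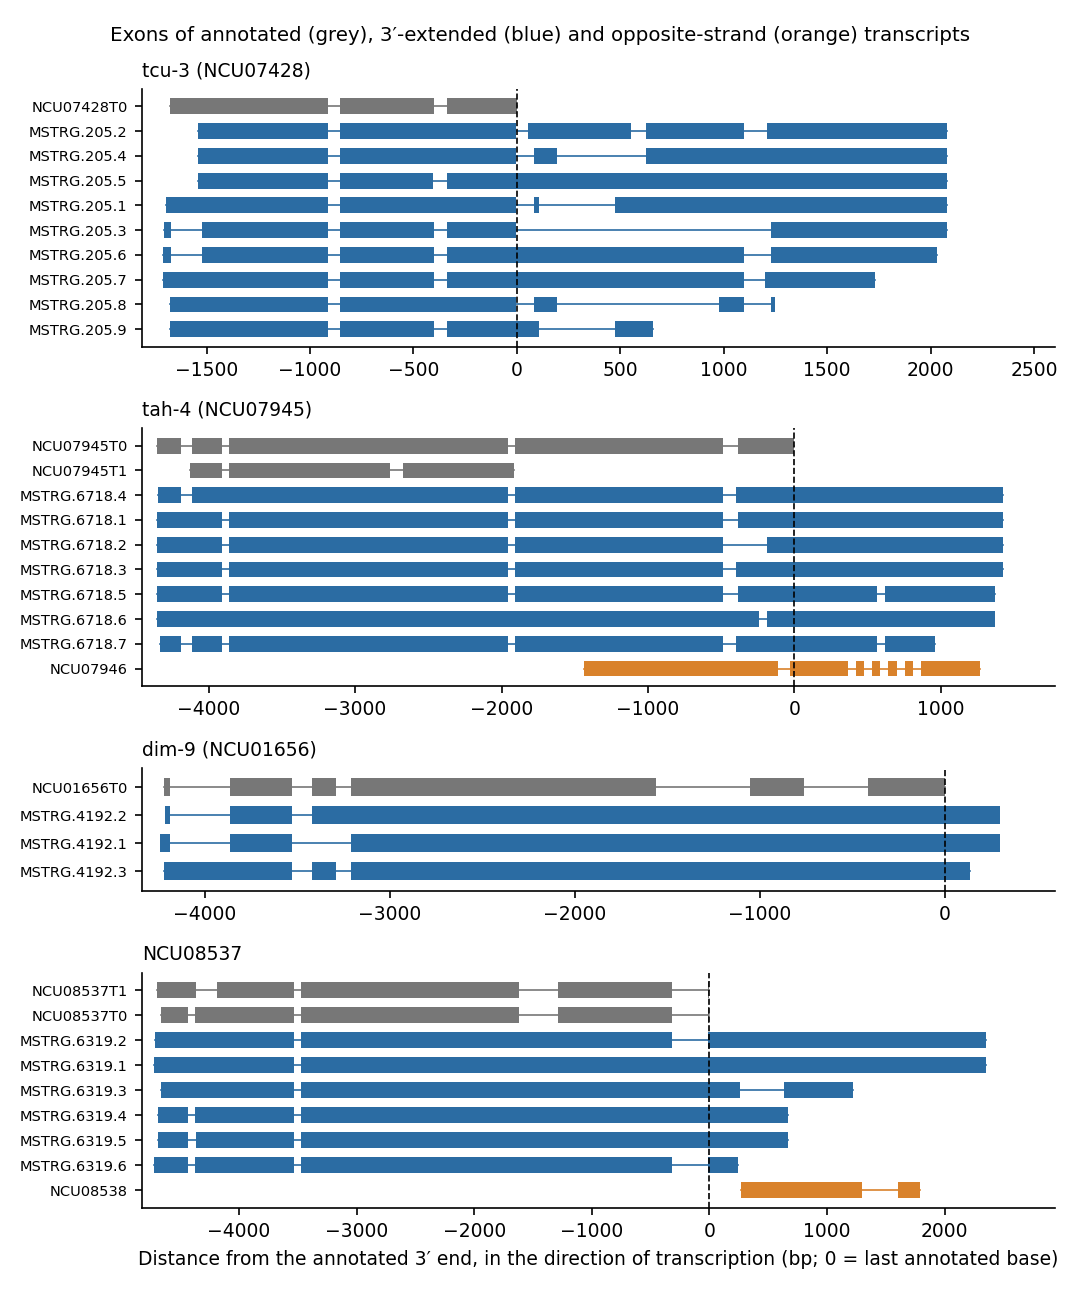
Exons (boxes) and introns (lines) of the annotated transcripts (grey), the 3′-extended isoforms (blue) and, where one was overlapped, the annotated transcript of the opposite-strand gene (orange) for tcu-3, tah-4, dim-9 and NCU08537. The x axis gives distance from the annotated 3′ end in bp, in the direction of transcription, with the dashed line at the last annotated base, and each row is 1 transcript. The tcu-3 isoforms were spliced past the end in several ways, and the dim-9 isoforms kept 1 unbroken exon across the last annotated introns.

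Within each gene, 454 end positions differed by at least 1 base. Merging ends within 25 bp left 448, and merging within 100 bp left 423. These totals say little about shared ends, because a gene with 1 extended isoform has 1 end that cannot be shared. One merged end was found in 319 of 377 genes (84.6%), 2 in 50, 3 in 4 genes, 4 in 3 genes and 5 in tcu-3. A single extended isoform was assembled for 295 genes (78.2%). Of the 82 genes with 2 or more isoforms, 24 (29.3%) had all of them end at 1 merged position, so these isoforms differed in splicing or in their 5′ end.

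Past the annotated 3′ end, 200 of 503 isoforms (39.8%, interval 35.5 to 44.2%) from 144 genes overlapped an annotated exon of a gene on the opposite strand, by a median of 284.5 nt (range 1 to 2443 nt). The isoforms joined 145 pairs of genes in this way, of which 78 already shared exonic bases in the annotation and 67 did not. Strand assignment bears on these values, because the kit named in the labels is not a stranded one by name, although the study describes the strand of its reads as kept. Of the 200 isoforms, 137 (68.5%) shared at least 1 annotated intron with the gene they extended, 19 had 1 exon, and among the 169 isoforms with an intron past the end, 9 used an intron of the opposite-strand gene. The part of unstranded reads in these overlaps was not tested.

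The largest antisense overlap was that of NCU17230 (chromosome VII, plus strand, 2579873 to 2580817). Its isoform MSTRG.12628.4 kept the annotated intron of the gene, spliced across the annotated end and then ran as 1 exon of 2944 nt to 3017 bp past it. This exon covered 2443 nt of the exons of rrg-2 (NCU02413), a response regulator gene on the minus strand whose 3′ end lies 268 bp downstream. An isoform of NCU17268 reached 2411 bp past its end and covered 2255 nt of NCU17269, and 1 of NCU05602 covered 1973 nt of NCU05603. Overlaps of 1911 nt with NCU04367 were found for 2 isoforms of NCU04368, of 1871 nt with NCU08618 for NCU08619, of 1788 nt with NCU09974 for NCU09973 and of 1718 nt with NCU03295 for NCU03296. The NCU08619 gene also had an isoform, MSTRG.3281.3, among the 9 that carried an intron of the opposite gene, and the NCU03296 isoform had 1 exon, so that its strand rests on the reads alone.

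In 15 isoforms the extension passed over a whole opposite-strand gene. NCU12150 (chromosome VI, minus strand) is annotated as 1 exon of 531 bp, and its 2 isoforms ran 2999 and 3050 bp past it, over 1667 exonic nt of ci-1 (NCU05001). The 2 isoforms of NCU10673, which passed their annotated end by 2609 and 3688 bp, likewise spanned NCU01281. Of the 5 isoforms of NCU00315, 4 ended together 2593 bp past the gene and spanned NCU00314, and the fifth stopped at 450 bp, 830 bp short of it.

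The next annotated gene downstream was convergent, that is on the opposite strand, for 238 of the 377 genes (63.1%, interval 58.0 to 68.0%). Among all genes the share was 55.2% (5367 of 9721 with a next gene), and among genes with any unannotated isoform it was 54.2%. The rule bears on this difference, because an isoform that reached an exon of a second gene on its own strand was left out. Member genes already overlapped the next gene in 20.7% of cases, against 20.4% of all genes. The median gap to the next gene was 635 bp for member genes and 477 bp for all genes. For convergent neighbours it was 211 bp against 169 bp, and for same-strand neighbours 1207 bp against 820.5 bp. The rule bears on the same-strand gaps, and so on the overall median, as well. A member had to run at least 100 bp past its gene without sharing exonic bases with a second same-strand gene. How far this set the medians was not tested.

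Where the extensions ended in that gap was fixed in part by the rule. With the next gene on the same strand, all 175 isoforms ended inside the gap, as the rule required of any isoform that did not splice over that gene, and they used a median of 36.1% of it. They left a median of 779 bp, and 46 ended within 250 bp of the next gene. With a convergent next gene, 105 of 328 isoforms belonged to genes that overlapped it in the annotation already. Of the other 223, 127 (57.0%, interval 50.2 to 63.5%) ended inside the gap and 96 ended past the annotated 3′ end of the neighbour. The extension itself had a median of 427 bp next to convergent genes and 392 bp next to same-strand genes.

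**Figure D4:**
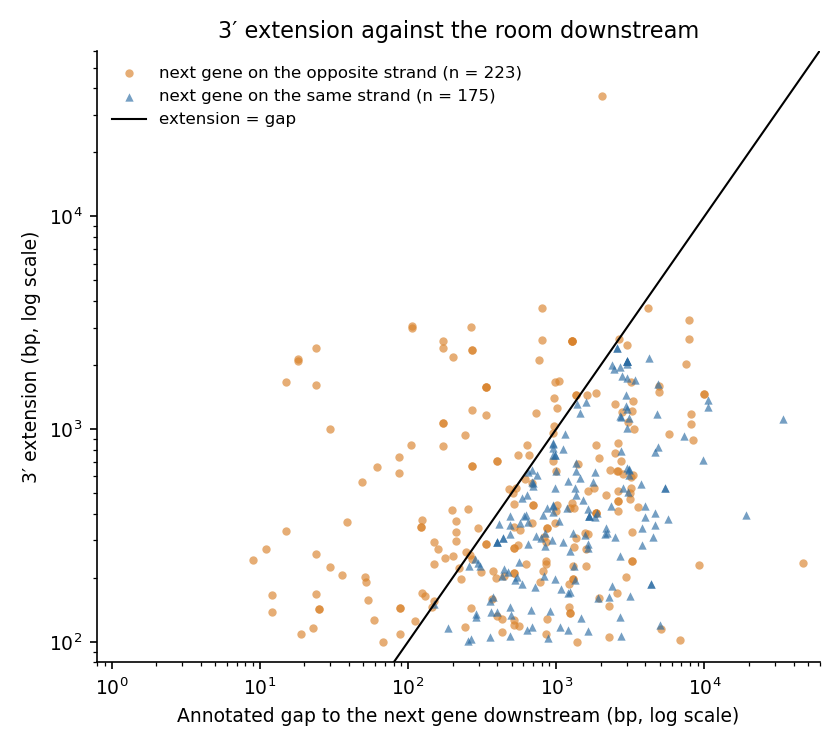
Length of the 3′ extension (y axis, bp, log scale) against the annotated gap to the next gene downstream (x axis, bp, log scale) for the isoforms of genes that did not overlap it. Each point is 1 isoform, orange circles have the next gene on the opposite strand (n = 223) and blue triangles on the same strand (n = 175), and above the line the extension exceeds the gap. All 175 triangles lie on or below the line, as the rule requires, and 96 of the circles lie above it.

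Both genes of a convergent pair were extended in 2 cases. In the pair set-9 (NCU08733) and NCU08734 on chromosome II, the gap was 520 bp and the longest extensions were 443 and 126 bp, so that the 2 isoforms shared 49 nt on opposite strands. In the pair NCU08805 and NCU08806 on chromosome IV, extensions of 512 and 863 bp did not meet in a gap of 2592 bp.

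The longest extension differed in kind from the others. It belonged to ypt-1 (NCU08477, chromosome II, minus strand, 3521919 to 3524139), which encodes a Rab GTPase of transport between the endoplasmic reticulum and the Golgi. Isoform MSTRG.4454.1 kept all 4 annotated introns and was then joined by 1 intron, which began inside the annotated last exon, to a last exon of 21 nt that ended 36894 bp away. It was the 1 member that crossed the span of another gene on its own strand. The next longest, at 4792 bp, was in NCU09570 and carried 3 introns wholly past the end and 1565 nt of overlap with NCU09569. The 3703 bp extension of NCU00940 was a single exon of 4523 nt that covered 60.5% of the annotated transcript, and 2988 bp of it lay over NCU14029, an ncRNA in the RefSeq annotation. NCU04830 had extensions of 2661 and 3263 bp, both over 726 bp of the ncRNA NCU14171. The strand of these ncRNA genes was not compared with that of the isoforms. In NCU03828 the extension of 2639 bp kept all 3 annotated introns and stopped 22 bp short of the convergent gene NCU03827.

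The most introns past the end, 4, were in MSTRG.5733.3 of NCU00264, which ended 1442 bp past the gene. MSTRG.4973.1 of NCU07845 had 3 introns over 1350 bp, in a gene whose annotated span is only 778 bp. MSTRG.5809.4 of NCU00315 had 3 over 2593 bp.

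Among the 377 genes, 37 have a symbol in the RefSeq table. Those named here were taken by the length of their extension, and no function was tested. The mismatch repair gene mlh-1 (NCU08309) had 2 isoforms that ended 1181 and 1327 bp past the gene, over 1005 and 1142 nt of the convergent NCU08310. The chromatin remodeller gene atrx (NCU06190) had 3 isoforms at 492, 633 and 693 bp, none over an annotated exon. The SET domain gene set-9 had isoforms at 346 and 443 bp.

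The isoform of rpn-4 (NCU01640), whose yeast counterpart activates proteasome genes, reached 1208 bp past the end in a gap of 2763 bp. The vma-5 isoform (NCU09897, a subunit of the vacuolar ATPase) kept all 3 annotated introns and reached 1096 bp, with 806 nt over NCU09896. In his-3 (NCU03139), a gene of histidine synthesis, an intron that began inside the annotated last exon led to a new last exon of 440 nt that ended 771 bp past it. The leucine synthesis gene leu-2 (NCU04385) likewise spliced over its end, to an exon of 120 nt that lay wholly over the convergent NCU04386. The 3 isoforms of nmt-1 (NCU09345), a gene of thiamine synthesis, ended 531 or 754 bp past the gene.

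In ham-7 (NCU00881), a gene required for cell fusion between hyphae, the convergent neighbour NCU00880 lies 15 bp downstream. Isoform MSTRG.2286.4 ran 1670 bp past the end as 1 exon and covered 1601 nt of that neighbour, while MSTRG.2286.1 spliced to an exon of 72 nt inside it and stopped at 331 bp. Of the other named genes, Pad-1 (NCU03491) was extended by 2001 bp, col-21 (NCU03489) by 169 and 638 bp, fld (NCU09739) by 419 bp and prk-8 (NCU01498) by 368 bp.

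Genes of the processes that the study addressed were looked up on lists chosen with earlier results known. On 9 lists with 79 genes, 36 genes had an unannotated isoform and 2 (2.53%) had a 3′-extended one, beside 3.87% of all genes. None of 20 genes for light reception or the clock, 5 of carotenoid synthesis, 6 of conidiation, 8 of other histone methyltransferases and Polycomb, 8 of RNA interference, 7 histone and 4 housekeeping genes had one. The list of other histone methyltransferases does not hold the SET domain genes set-8 (NCU01973, 206 bp) and set-9, which were members. Isoforms that passed both ends, and so fell outside the rule, reached past the 3′ end of acon-3 by 1321 bp, of dcl-2 by 331 bp, of set-7 by 123 bp, and of the discussed loci NCU02913 and NCU10059 by 349 and 273 bp. The first exception was dim-9 (NCU01656, chromosome II, minus strand, 2791337 to 2795556), 1 of 12 genes for H3K9 methylation, HP1 and DNA methylation, whose product belongs to the complex of DIM-5. Its 3 isoforms ended 296, 296 and 138 bp past the gene, covered 95.4 to 100% of the annotated exons, and retained 2 or 3 of the 5 annotated introns. The second was NCU09969, 1 of 9 loci the study discussed, whose 2 isoforms began well inside the gene, covered 29.2% of the annotated exons and ended 187 bp past it.

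The conidiation gene con-6 (NCU08769) had no 3′-extended isoform of its own but lay under one. MSTRG.6394.1 of the convergent NCU08768 passed its annotated end by 647 bp, overlapped con-6 by 536 nt and carried an intron of con-6, so it was among the 9 isoforms with an intron of the opposite gene. In gene families taken by symbol, a 3′-extended isoform was found for 1 of 29 respiratory complex I subunits (nuo11.5, 109 bp), 1 of 13 vacuolar ATPase subunits, 1 of 79 glycoside hydrolases, 1 of 9 clock-controlled (ccg) genes (ccg-14, 198 bp), and none of 7 cytoplasmic ribosomal protein or 21 DNA repair (mus) genes. Of the 1118 genes with a symbol 3.31% were members, and of the 491 gene models numbered from NCU16000 up 4.68% were.

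The 3′-extended isoforms were set beside the 849 isoforms of 534 genes that were extended at the 5′ end instead, by the same distances with the ends exchanged. Extensions at the 5′ end had a median of 561 bp (interval 499 to 630 bp). An intron lay past the extended end in 57.5% of them (interval 54.1 to 60.8%), against 33.6% at the 3′ end. An annotated exon of the opposite strand lay there in 15.1% (interval 12.7 to 17.7%), against 39.8% at the 3′ end. With the longest isoform of each gene alone the shares were 52.6% against 32.9% for introns and 12.9% against 38.2% for opposite-strand exons. The annotated intron chain was kept by 48.3% of 5′-extended and 30.5% of 3′-extended isoforms of multi-exon genes. These shares were not tested, since isoforms of 1 gene share their reads and the intervals cover counting error alone. The layout of neighbouring genes bears on the opposite-strand shares. Downstream, 55.2% of all genes had a convergent next gene and 20.4% overlapped the next gene. Of the 145 gene pairs joined by 3′ extensions, 78 already shared annotated exonic bases. The layout upstream of the 5′ ends was not computed, and the part of layout in this contrast was not tested.

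**Figure D5:**
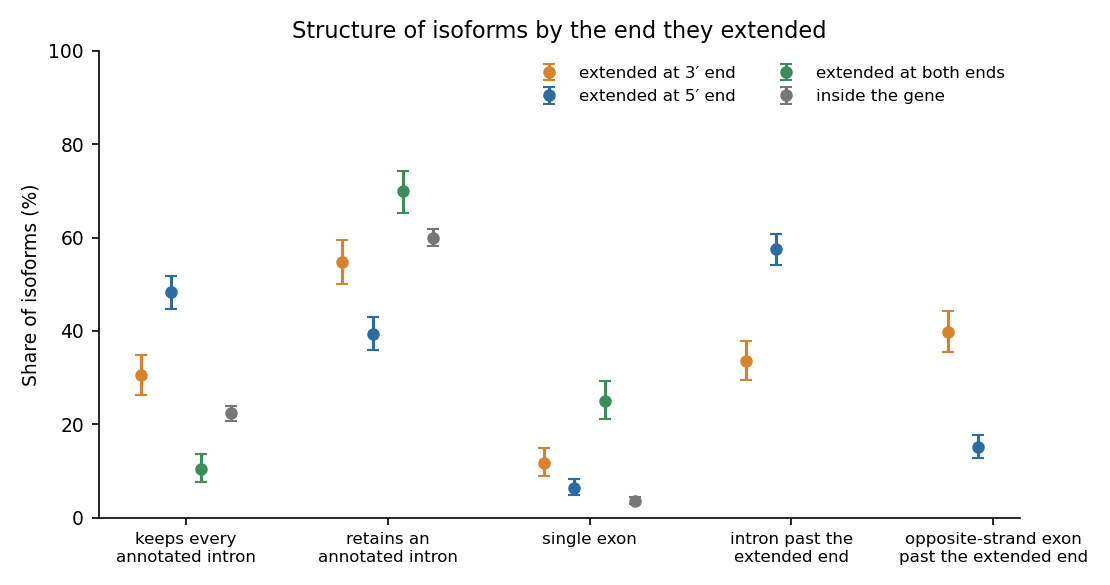
Share of isoforms (y axis, %) with each structural feature (x axis) among isoforms extended at the 3′ end (orange, n = 503), at the 5′ end (blue, n = 849), at both ends (green, n = 439) or lying inside the gene (grey, n = 2816), the first 2 features over isoforms of multi-exon genes. Points are shares with exact 95% intervals, and the features past the extended end apply to the first 2 classes. Opposite-strand exons lay past 39.8% of 3′ and 15.1% of 5′ extensions, and the part of gene layout in this contrast was not tested.

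The isoforms extended at both ends retained an annotated intron most often among these classes (70.0%), followed by those inside the gene (59.9%), at the 3′ end (54.8%) and at the 5′ end (39.4%). Of the 377 genes, 8 (2.12%) also had a 5′-extended isoform, 25 (6.63%) an isoform past both ends and 69 (18.3%) an isoform inside the gene. Among all 9730 genes, such isoforms were found for 534, 337 and 1917 genes, all of them within the 3546 genes with any unannotated isoform. Each of the 377 genes is among those 3546 by the rule, so their shares are not comparable with shares of all genes. Isoforms that joined 2 or more genes were found for 20 of the 377 (5.31%), while 14.7% of all genes with an unannotated isoform had one. These shares cannot show whether joining was rarer at member genes, because the sets were defined differently. By the rule, each of the 377 had an isoform that joined no other gene. The wider set also admitted genes through a joined isoform alone.

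The members were spread over the genome. They comprised 238 isoforms on the plus and 265 on the minus strand, and the share of genes with one went from 3.10% on chromosome V (49 of 1580) to 4.38% on chromosome IV (65 of 1485), with exact intervals of 2.30 to 4.08% and 3.39 to 5.54%. Member genes spanned a median of 2352 bp, beside 2129 bp for all genes and 2535 bp for genes with any unannotated isoform. Past the annotated end, 240 isoforms (47.7%) met no transcript of the opposite strand, annotated or assembled, and 125 (24.9%) overlapped an unannotated transcript there. In position, 13 extensions overlapped a RefSeq tRNA, rRNA or other noncoding gene, such as the tRNA genes NCU15271 at NCU01575 and NCU15274 at prk-8. The strand of these noncoding genes was not compared.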

How the data were processed

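Per the labels, ribosomal RNA was depleted from total RNA of mycelia and libraries were sequenced as paired ends, without selection of polyadenylated RNA. The authors deposited 1 merged annotation, made with HISAT2 2.1.0 and StringTie 1.3.3b according to the submitters' processing notes, in which all 12 libraries were pooled, and whose values are start and end positions of exons. Positions are those of the deposited supercontigs, and 9729 of 9730 genes had the same span in the RefSeq table of assembly NC12, from which symbols were taken. The labels state 60000000 paired reads without saying whether per library, and counts per library were not analysed here, so the depth behind each end is unknown. Abundance estimates were not used, and no sequence was read because no genome was used here.

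Transcripts without a reference gene were assigned to genes by at least 1 bp of exonic overlap on the same strand. A gene spanned the outermost ends of its annotated transcripts. Ends within 25 bp were merged. Shares carry exact (Clopper-Pearson) 95% intervals and medians order-statistic intervals, both for counting error alone, and no test was made. The class assignment was checked on simulated transcripts of 1 exon, planted at set distances from the ends of genes without a close same-strand neighbour. Spliced isoforms and crowded loci were not simulated. Python 3.11.15, numpy 2.4.6 and scipy 1.17.1 were used. The genes named were the 10 with the longest extension, the 5 with the most isoforms, the isoforms with the longest opposite-strand overlap (10) and the most introns past the end (5), the isoforms nearest the threshold, every member gene of the lists, and the 15 genes with a symbol and the longest extensions. The con-6 neighbour, the pairs extended from both sides, the isoforms over RefSeq noncoding genes, set-8, the list genes passed at both ends, nuo11.5 and ccg-14 were added with their values already in view. The members and lists were chosen with earlier results of these data known. The planned share of genes whose annotated transcripts leave no room for an untranslated region needs protein lengths and was not run.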

Additional observations from a re-analysis of the deposited data

How the results depend on the processing

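Of 72 values recomputed for 8 results, 48 stayed within the interval of the main value (shares and medians) or within 1.5 times of it (counts). A minimum extension of 50 bp gave a median of 334 bp, and 1 of 200 bp a median of 557.5 bp and an intron past the end in 39.7% of isoforms. A minimum of 500 bp left 213 isoforms of 148 genes with 185 ends and a median of 1067 bp, of which 49.3% had an intron past the end and 46.5% an opposite-strand exon. In that set 69.6% of genes had a convergent next gene and 41.7% of multi-exon genes kept the intron chain. Where the 5′ end could not be passed at all, the intron share was 38.6% and the intron chain share 41.9%, and with isoforms of 2 or more exons they were 38.1% and 41.3%. Without a limit at the 5′ end there were 942 isoforms of 689 genes with 830 ends, an intron past the end in 25.4%, an opposite-strand exon in 34.3% and the intron chain in 25.2% of genes. Counting introns wholly past the end gave 19.3%, opposite-strand overlaps of 100 bp or more 32.4%, and a next gene within 1000 bp a convergent share of 75%. The share among all genes was not computed at this 1000 bp limit. Their convergent neighbours lay closer (median gap 169 bp) than their same-strand neighbours (820.5 bp). An exon overlap of 100 bp or more with 1 gene moved none of the 8 results. Gene spans from the RefSeq table gave the main values again. That outcome was fixed, because 9729 of 9730 genes have the same span there, yet its values for the 8 results are counted among the 48.

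No paired analysis was possible because the annotation pools all 12 libraries, and for the same reason no replicate was left out. The share of genes without room for an untranslated region was not run. End positions were assembled from read coverage of RNA that was not selected for poly(A) tails, so a 3′ end here is the end of an assembled transcript, and the cleavage site was not measured. Abundance, strain and light condition of the isoforms are unknown.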
